A study of Mus musculus with 8 samples.

Results

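Inha, Gsta3, Paqr8 and Sulf1 are 4 genes of mouse chromosome 1, and they are 4 of the 39667 loci measured in whole testes. Inha and Paqr8 are listed here under hormone and growth factor signalling. Gsta3 is listed under detoxifying enzymes, and Sulf1 under heparan sulfate and extracellular matrix. The genes were selected on known results of this contrast, and their WT FPKM values fixed which loci they are. RNA was sequenced from whole testis of 3 WT and of 3 Stra8-KO mice, all on the C57BL/6 strain and 6 weeks old. In the Stra8-KO mice (Stra8-Cre; Upf2 fl/Δ) a Cre recombinase driven by Stra8 deletes Upf2, a core factor of nonsense-mediated mRNA decay, in meiotic and haploid germ cells, so the somatic cells of the testis are not its target. Whether the WT mice carried floxed alleles or the Cre transgene is not given in the sources used here. The values are FPKM (fragments per kilobase of transcript, scaled to the mapped fragments of the library). The loci carry identifiers and no gene names, so the locus of Upf2 itself was not analysed here. Purified WT spermatocytes and round spermatids were not analysed here either.

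Inha encodes the alpha subunit of inhibin, the hormone by which Sertoli cells restrain the release of follicle-stimulating hormone from the pituitary. Paqr8 encodes a membrane receptor for progestins. Gsta3 encodes an alpha-class glutathione transferase, an enzyme family that conjugates reactive compounds to glutathione. Sulf1 encodes an extracellular sulfatase that trims heparan sulfate, the sugar chains on which many growth factors are held at the cell surface. The germ cells of an adult testis outnumber the Sertoli, Leydig, peritubular and blood cells around them, and most of its RNA comes from germ cells. The comparison asks how the RNA of the whole testis differs once Upf2 is lost from its later germ cells.

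The loci were identified by their order along chromosome 1 and their WT level. Each locus was compared with the named locus of the study's list, and WT values alone were used for this. For XLOC_000393 (Inha), 4 numbers above its listed identifier, the ratio of the WT mean in the files to that of the list was 0.968. For XLOC_000065 (Gsta3) and XLOC_000062 (Paqr8), each 1 number above, the ratios were 0.864 and 0.950. XLOC_000036 (Sulf1) has the listed identifier, and its ratio was 0.929. Among the 21 loci within 10 numbers of the identifier, the chosen locus was the only one whose WT mean was within 25% of the listed one, as a ratio in either direction, for Inha, Paqr8 and Sulf1. For Gsta3 a second locus, XLOC_000058, was within that range, and it lies before Paqr8 in the order. An alignment of the whole list to the files in order paired all 4 genes with these same loci. The Stra8-KO means, which had no part in the pairing, were 1.07, 1.13, 1.12 and 1.04 times the listed ones for Inha, Gsta3, Paqr8 and Sulf1. The loci that carry the listed numbers of Inha, Gsta3 and Paqr8 had WT means of 0.505, 0.604 and 0.185 FPKM.

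All 4 genes lie on the plus strand of chromosome 1 (NCBIM37, GENCODE annotation). Inha spans 75503652 to 75506941 and has 1 annotated transcript with 2 exons and 1475 bases, of which 1098 are coding. Gsta3 spans 21230670 to 21255442, with 3 transcripts, the longest coding one having 7 exons and 1157 bases. Paqr8 spans 20880691 to 20929632, with 4 transcripts and 5220 bases over 3 exons in the longest, of which only 1062 are coding. Sulf1 is the longest of them, from 12708626 to 12850452, with 22 exons and 4608 bases. An FPKM here covers the exons of the whole locus and does not separate isoforms. No stretch of 75 bases in their coding transcripts occurs in a coding transcript of another gene, on either strand, which also holds for Gsta3 with its related family members. No annotated exon of another gene overlaps theirs.

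Sequences around their starts are shown as a description. Any link between a motif and the values of the genes was not tested. The window from 250 bases before to 50 bases after the first annotated start was searched on both strands for 6 motifs. AGATAA, a form of the core bound by GATA factors, reads TTATCT on the opposite strand. It was found for Inha, Gsta3 and Sulf1, and in 10.3% of the windows of 22367 protein-coding genes. Other forms of this core were not searched, so its absence for Paqr8 holds for these letters alone. TGCGTCA, a variant of the cAMP response element, was found only for Inha among the 4, and in 2.50% of all windows. GGGCGG, the GC box, was found only for Paqr8 among the 4, and in 43.4% of all windows. TGACGTCA, the full cAMP response element, CAAGGTCA, a site of steroidogenic factor, and TATAAA, the TATA box, were in none of the 4 windows and in 2.32, 1.30 and 13.4% of all windows. The plus strand is printed 5′ to 3′ with the motif in capitals, and the GATA core of Sulf1 lies 5 bases past the annotated start. A match is a description of the letters and not of binding.
Inha, cAMP response element variant, chr1:75503619-75503642: cagacatcTGCGTCAgagatagga
Inha, GATA core, chr1:75503592-75503615: gggagtgggAGATAAggctcaggg
Gsta3, GATA core on the opposite strand, chr1:21230562-21230585: tctaatcctTTATCTaaatgtctg
Sulf1, GATA core on the opposite strand, chr1:12708622-12708645: cgggcagttTTATCTgcaagttgg
Paqr8, GC box, chr1:20880596-20880619: gccgggaaaGGGCGGagctgggcg

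The 18726 loci that reached an FPKM of 1 in 3 or more testes were compared between the genotypes with limma on log2(FPKM + 1), and an adjusted p under 0.05 over all of them was the threshold. In that fit 8403 loci (44.9%) were called, 3607 (19.3%) higher and 4796 (25.6%) lower in Stra8-KO testes. Each log2 fold change is a difference of mean log2(FPKM + 1), so at low FPKM the +1 makes it smaller than a log2 ratio of FPKM. The median log2 fold change of all loci tested was -0.07. Scaling each testis to its upper quartile moved this median to 0.08 and turned the balance of the calls, with 4625 loci higher and 3836 lower. Without Stra8-KO replicate 3 the higher loci numbered 2404, and without Stra8-KO replicate 2, 2409. The first base kept in trimming differed between the genotypes, so an effect of trimming cannot be told apart from genotype. In the study's histology, spermatocytes and spermatids were massively depleted in Stra8-KO testes, so the mix of cells differed between the genotypes. For a single gene in whole testes, fewer cells of a type and less RNA per cell cannot be told apart either. FPKM is scaled to each library, so a higher value is a larger share of its RNA. It need not be more RNA of the gene per cell or per testis, and these cannot be told apart here.

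Inha, Gsta3 and Sulf1 had higher values in all 3 Stra8-KO testes than in any WT testis, at 2.23, 3.18 and 2.27 times the WT mean. Paqr8 had a ratio of 0.916, and its genotypes overlapped. Of all loci tested, 25.9% had every Stra8-KO testis above every WT testis and 30.9% had every one below. The 4 genes were chosen with results of this contrast known and their WT levels served to identify them, so their differences are given as a description, without p-values or calls, and nothing is read from these counts.

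**Figure D1:**
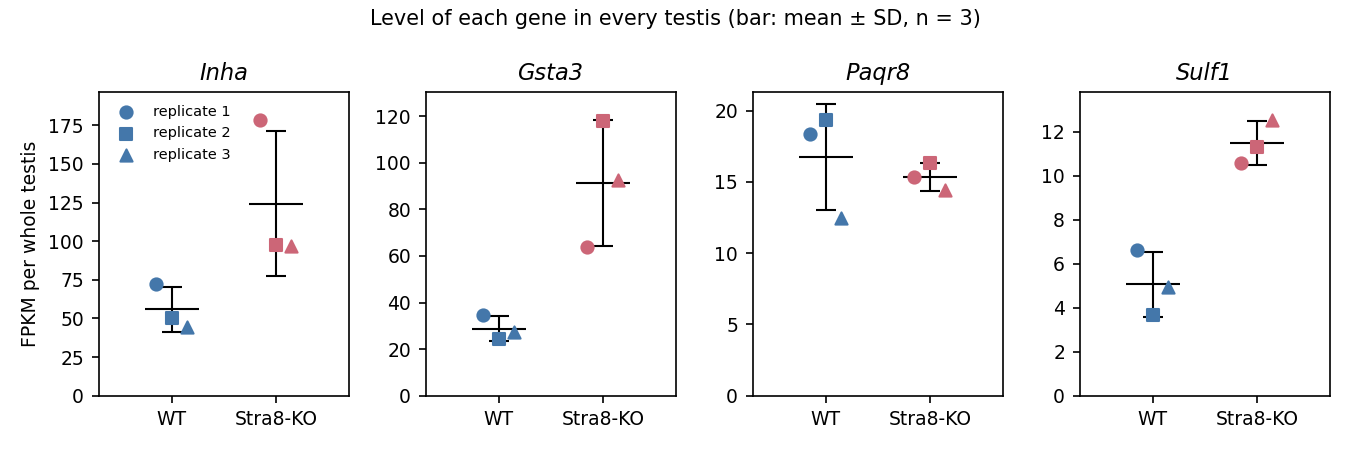
FPKM of Inha, Gsta3, Paqr8 and Sulf1 in every WT and Stra8-KO testis, each panel starting at 0, with the marker shape giving the replicate number and the bar the mean ± SD of 3 testes. The lowest Stra8-KO value was 1.33 times the highest WT value for Inha, 1.85 times for Gsta3 and 1.60 times for Sulf1, whereas the Stra8-KO testes of Paqr8 fall inside the WT range.

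The inhibin subunit gene Inha had an FPKM of 72.5, 50.5 and 44.6 in WT replicates 1 to 3 and of 179, 97.6 and 96.7 in Stra8-KO replicates 1 to 3. The genotypes did not overlap, and 1 testis, Stra8-KO replicate 1, stood well above the other two of its genotype. The mean was 55.9 ± 14.7 (SD, n = 3) over WT and 124 ± 47.1 (SD, n = 3) over Stra8-KO testes, for a log2 fold change of 1.11 (standard error 0.278, 95% confidence interval 0.46 to 1.76). Without Stra8-KO replicate 1 the log2 fold change was 0.82, and without WT replicate 1 it was 1.31, the lowest and highest values with a testis left out. Inha was the most abundant of the 4 genes per length. Its mean FPKM was above that of 83.9% of the loci tested in WT testes and of 95.4% in Stra8-KO testes.

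Inha also varied among testes of the same genotype. The SD of its log2(FPKM + 1) was 0.36 over the WT testes and 0.50 over the Stra8-KO testes. Among the 3345 loci with a WT mean between 0.5 and 2 times that of Inha the median SD was 0.18, and among the 1880 loci with a like Stra8-KO mean it was also 0.18.

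Paqr8, the progestin receptor gene, had an FPKM of 18.4, 19.4 and 12.5 in WT replicates 1 to 3 and of 15.3, 16.3 and 14.4 in Stra8-KO replicates 1 to 3. All 3 Stra8-KO testes lay between WT replicate 3 and the other WT testes. Its mean was 16.8 ± 3.72 (SD, n = 3) over WT and 15.3 ± 0.955 (SD, n = 3) over Stra8-KO testes, for a log2 fold change of -0.10 (standard error 0.195). The 95% confidence interval of -0.55 to 0.36 covers ratios from 0.681 to 1.28, so a moderate change in either direction was not excluded with 3 testes per genotype. The sign depended on the setting. It was positive with upper quartile scaling (0.07) and without WT replicate 2 (0.01), and reached -0.28 without WT replicate 3.

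The spread of Paqr8 was unlike that of Inha. Over the Stra8-KO testes the SD of its log2(FPKM + 1) was 0.08, below the median of 0.23 among 5807 loci of like level. Over the WT testes it was 0.32, above the median of 0.23 among 5326 loci.

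The transferase gene Gsta3 had the largest ratio of the 4 genes. Its FPKM was 34.6, 24.3 and 27.4 in WT replicates 1 to 3 and 63.9, 118 and 92.7 in Stra8-KO replicates 1 to 3. The lowest Stra8-KO testis was replicate 1, the testis in which Inha was highest. The mean was 28.7 ± 5.27 (SD, n = 3) over WT and 91.5 ± 27.1 (SD, n = 3) over Stra8-KO testes, for a log2 fold change of 1.61 (standard error 0.238, 95% confidence interval 1.05 to 2.16). This fold change was higher than that of 97.95% of the loci tested. Its SD on the log2 scale was 0.25 in WT and 0.44 in Stra8-KO testes, against medians of 0.20 and 0.18 at like levels.

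Sulf1, the sulfatase gene, was the least abundant of the 4 genes. Its FPKM was 6.61, 3.66 and 4.93 in WT replicates 1 to 3 and 10.6, 11.3 and 12.6 in Stra8-KO replicates 1 to 3. The 3 Stra8-KO testes were close to each other and clear of the WT testes. The mean was 5.07 ± 1.48 (SD, n = 3) and 11.5 ± 0.999 (SD, n = 3), and the log2 fold change of 1.07 (standard error 0.227, 95% confidence interval 0.54 to 1.60) was close to that of Inha. Its mean FPKM was above that of 35.7% of the loci tested in WT and of 55.4% in Stra8-KO testes. The SD on the log2 scale was 0.35 in WT testes and 0.11 in Stra8-KO testes, against medians of 0.31 and 0.24 at like levels.

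**Figure D2:**
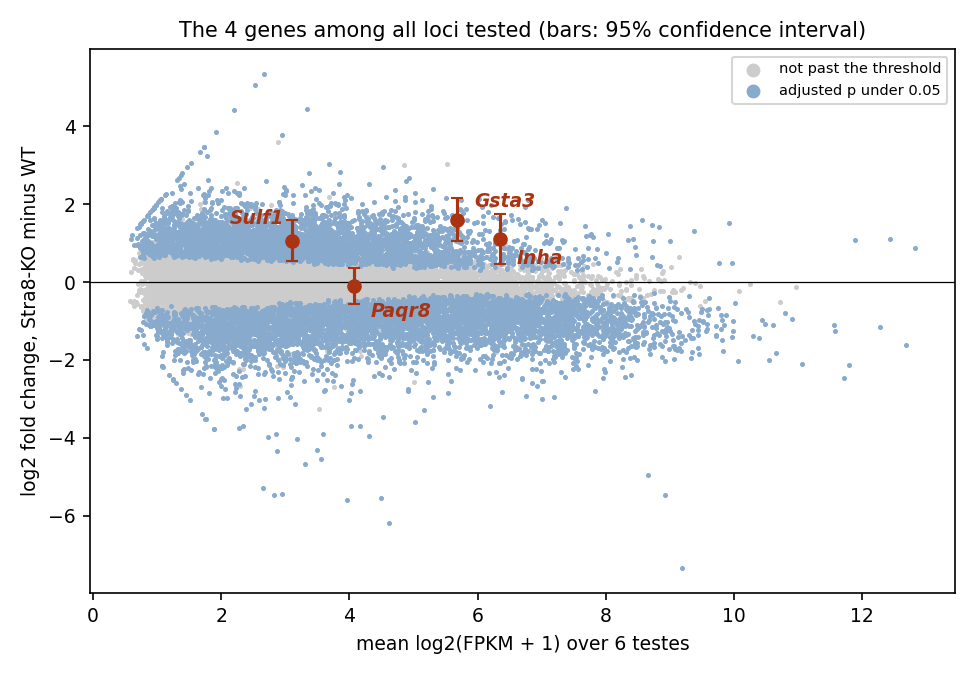
The log2 fold change (Stra8-KO minus WT) against the mean log2(FPKM + 1) over 6 testes for the 18726 loci tested, with loci past the threshold in blue and the 4 genes in red with their 95% confidence intervals. Inha, Gsta3 and Sulf1 lie among the higher loci at 1.11, 1.61 and 1.07, and Paqr8 lies close to the zero line at -0.10.

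The genes did not keep their proportions in the single Stra8-KO testes. The ratio of the FPKM of Gsta3 to that of Inha was 0.477, 0.481 and 0.613 in WT replicates 1 to 3. In Stra8-KO replicates 1 to 3 it was 0.358, 1.21 and 0.959, so replicate 1 lay below the WT testes and the other two above them. The ratio of Inha to Sulf1 ranged from 9.06 to 13.8 among WT testes and from 7.70 to 16.9 among Stra8-KO testes, and these ranges overlap. Set against Paqr8, whose genotypes overlapped, Inha had ratios of 2.61 to 3.94 among WT and 5.99 to 11.7 among Stra8-KO testes. The ratio of Gsta3 to Paqr8 was 1.254 to 2.19 among WT and 4.17 to 7.23 among Stra8-KO testes. These ratios within a testis do not depend on a scaling by 1 factor per library, but they do change with quantile normalization.

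Germ cell genes named on the same stretch of chromosome 1 were read beside the 4 genes. Of 11 genes used in germ cells, 9 could be identified, and 4 of them fell (limma, adjusted p under 0.05, against 25.6% of all loci tested), 0 rose, against 19.3%, and 5 did not pass the test. At an unadjusted p under 0.05, 6 were lower, against 29.8% of all loci tested, and 0 higher, against 23.7%. Their median log2 fold change was -0.38, against -0.07 for all loci tested. Spata3, a gene of spermatogenesis, had an FPKM of 537, 562 and 532 in WT replicates 1 to 3 and of 148, 116 and 133 in Stra8-KO replicates 1 to 3, a log2 fold change of -2.04 (standard error 0.118, limma, adjusted p = 1.29e-04). Spag16, a component of the sperm flagellum, fell from 102 ± 10.2 to 57.1 ± 8.69 FPKM (SD, n = 3). Its log2 fold change was -0.83 (limma, adjusted p = 0.00382). Both genes were well above zero in all 6 testes. Fer1l5 and Dnahc7b, a dynein heavy chain gene, fell by 0.57 and 0.38 on the log2 scale, with adjusted p-values of 0.0305 and 0.0370 from limma. Both calls were lost with upper quartile scaling (limma, adjusted p = 0.0886 and 0.215) and with quantile normalization (0.0720 and 0.670). That of Dnahc7b was also lost with median of ratios scaling (0.0735) and without the variance trend (0.0770). The call of Fer1l5 was also lost without WT replicate 1, 2 or 3 (0.0585 to 0.0825), and that of Dnahc7b without WT replicate 2 or 3 or any of the Stra8-KO replicates (0.0675 to 0.127).

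Neither of the loci paired with genes of meiosis passed the test. Sgol2, which guards the cohesion of sister chromatids in meiosis, averaged 12.8 ± 1.64 FPKM over WT and 12.4 ± 1.17 over Stra8-KO testes (SD, n = 3). The locus paired with Boll, which encodes an RNA-binding protein needed in meiosis, had 22.5 ± 7.33 and 23.1 ± 6.25 (SD, n = 3). Its name is less certain. Rbm44 had 38.7 ± 5.51 and 29.5 ± 2.49, and the transporter gene Slco6d1 44.5 ± 3.47 and 33.3 ± 4.95 (SD, n = 3), and neither passed the test (limma, adjusted p = 0.0807 and 0.0558). Rbm44 was past the threshold only without WT replicate 1 (0.0354) among the testes left out. Slco6d1 was past it with the filter of FPKM at least 5 (limma, adjusted p = 0.0475) and with the replicate number as a block (0.0341). Dnahc7c had 3.84 ± 1.41 and 3.55 ± 2.12 FPKM (SD, n = 3).

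The summed FPKM of the 9 germ cell genes, most of it from Spata3, was 816, 890 and 871 in WT replicates 1 to 3 and 345, 363 and 367 in Stra8-KO replicates 1 to 3. The Stra8-KO testes were alike in this sum, at 0.401, 0.422 and 0.427 times the WT mean. In the same 3 testes Inha was at 3.20, 1.75 and 1.73 times its WT mean, Gsta3 at 2.22, 4.10 and 3.23 times, Sulf1 at 2.09, 2.24 and 2.48 times and Paqr8 at 0.914, 0.974 and 0.860 times. The part of germ cell content in the values of the 4 genes was not tested.

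**Figure D3:**
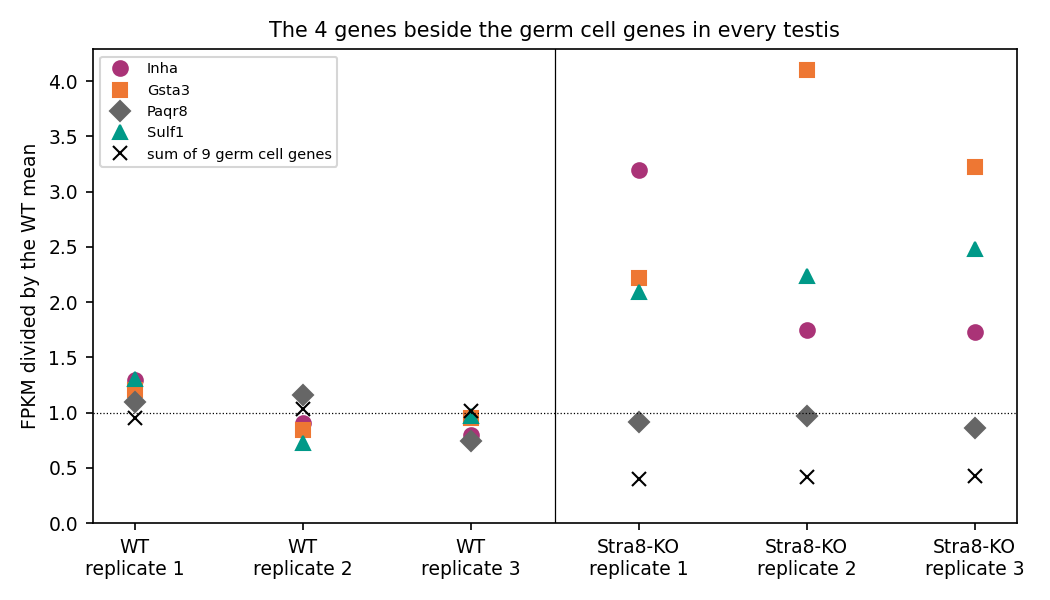
FPKM of the 4 genes and the summed FPKM of 9 germ cell genes in each testis, divided by the mean of the WT testes (dotted line at 1), with WT testes to the left of the vertical line. In the Stra8-KO testes the germ cell sum lies between 0.401 and 0.427, Paqr8 between 0.860 and 0.974, and the other 3 genes between 1.73 and 4.10.

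The other genes described next come from lists by known function over the same stretch of the chromosome. Of the 66 listed genes other than the 4, 34 could be paired with a locus of like WT level (within 1.5 times, listed at an FPKM of at least 2), and all 34 were tested. Among all 223 loci that could be identified and tested in this way, 49 were higher and 49 lower, with a median log2 fold change of -0.05. For 207 of the 224 loci identified, the Stra8-KO mean also lay within 1.5 times the listed one. Among the genes named here it did not for Pth2r, Col4a4, Sned1 and Boll, whose names are less certain.

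Of 18 further genes of hormone and growth factor signalling, 8 could be identified. In Stra8-KO testes 3 rose, against 19.3% of all loci tested, and 0 fell, against 25.6% (limma, adjusted p under 0.05). At an unadjusted p under 0.05 the counts were also 3 and 0, against 23.7 and 29.8% of all loci tested. Their median log2 fold change was 0.26. The locus paired with Akr1cl, a relative of the aldo-keto reductases that act on steroids, rose from 3.86 ± 0.891 to 24.98 ± 5.62 FPKM (SD, n = 3). Its log2 fold change was 2.41 (standard error 0.236, limma, adjusted p = 3.94e-04). Its WT mean was 1.30 times the listed one. The next locus in the order averaged 3.77 FPKM over WT and 24.2 over Stra8-KO testes, so the name Akr1cl is less certain. The locus paired with Akr1cl was at 4.81, 3.04 and 3.72 in WT replicates 1 to 3 and at 18.5, 28.4 and 28.1 in Stra8-KO replicates 1 to 3. Like Gsta3, it was lowest among the Stra8-KO testes in replicate 1.

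Creb1, the transcription factor that binds cAMP response elements, rose from 8.30 ± 3.11 to 23.5 ± 2.78 FPKM (SD, n = 3). Its log2 fold change was 1.45 (limma, adjusted p = 0.00519). Sgk3, a kinase of growth factor signalling, rose from 11.5 ± 0.589 to 22.5 ± 4.83 (SD, n = 3), with a log2 fold change of 0.88 (limma, adjusted p = 0.00823). The other 5 did not pass the test. Adipor1, a receptor of adiponectin, had 44.5 ± 13.0 and 40.3 ± 1.95 FPKM, and Rdh10, which makes retinaldehyde from retinol, had 7.48 ± 0.810 and 5.79 ± 0.422 (SD, n = 3). Igfbp2, a carrier of insulin-like growth factors, had 11.2 ± 4.35 and 13.1 ± 4.59, and Wnt6 7.06 ± 2.02 and 8.95 ± 2.63 (SD, n = 3). The locus paired with Pth2r, a receptor of the parathyroid hormone family, had 4.38 ± 2.26 and 3.02 ± 1.03 (SD, n = 3).

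Of 6 further detoxifying enzyme genes, listed beside Gsta3, 4 could be identified, of which 3 rose and 0 fell (limma, adjusted p under 0.05), against 19.3 and 25.6% of all loci tested. At an unadjusted p under 0.05 the counts were again 3 and 0, against 23.7 and 29.8%. The median log2 fold change of the 4 was 1.39. Ugt1a7c encodes an enzyme that adds glucuronic acid to steroids and foreign compounds. The locus paired with it had an FPKM of 46.7, 25.4 and 23.4 in WT replicates 1 to 3. In Stra8-KO replicates 1 to 3 it had 81.0, 107 and 89.3, a log2 fold change of 1.57 (standard error 0.260, limma, adjusted p = 0.00293). Exons shared with other genes were checked only for Inha, Gsta3, Paqr8 and Sulf1, so other genes may add to this locus. The levels of the locus were close to those of Gsta3 in both genotypes. Aox1, an aldehyde oxidase, rose from 2.18 ± 0.593 to 8.58 ± 1.11 FPKM (SD, n = 3), with a log2 fold change of 1.60 (limma, adjusted p = 0.00156). Its neighbour Aox3 had 15.3 ± 3.96 and 17.1 ± 0.495 (SD, n = 3) and did not pass the test. Adhfe1, an alcohol dehydrogenase, rose from 3.30 ± 1.49 to 9.34 ± 5.10 FPKM (SD, n = 3), with an adjusted p of 0.0370 from limma. That call was lost without WT replicate 1 or 2 or Stra8-KO replicate 1 or 2 (0.0576 to 0.107). It was also lost with no filter on low values (0.0649) and with the replicate number as a block (0.0728).

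Of 13 further genes of heparan sulfate and extracellular matrix, listed beside Sulf1, 9 could be identified, of which 3 rose, 1 fell and 5 did not pass the test, against 19.3% higher and 25.6% lower among all loci tested. Their median log2 fold change was -0.18. Hs6st1, which adds the sulfate groups that SULF1 removes, rose from 2.19 ± 0.343 to 4.79 ± 1.56 FPKM (SD, n = 3). Its log2 fold change was 0.83 (limma, adjusted p = 0.0408). That call was lost without any of WT replicates 1 to 3, Stra8-KO replicate 1 or Stra8-KO replicate 3 (0.0556 to 0.121). It was also lost with quantile normalization (limma, adjusted p = 0.0621) and with no filter on low values (0.0718). Gpc1, a core protein that carries heparan sulfate, had 2.76 ± 0.516 and 2.22 ± 0.817 (SD, n = 3).

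Col3a1, a fibrillar collagen of connective tissue, rose from 5.74 ± 0.772 to 20.2 ± 2.85 FPKM (SD, n = 3). Its log2 fold change was 1.65 (standard error 0.184, limma, adjusted p = 6.30e-04). Col4a3, a basement membrane collagen, rose from 2.64 ± 0.175 to 7.42 ± 1.83 FPKM (SD, n = 3; limma, adjusted p = 0.00537). The locus paired with Col4a4, the gene that encodes its partner chain, fell from 25.7 ± 14.1 to 7.68 ± 3.98 (SD, n = 3; limma, adjusted p = 0.0429), and its call was lost without WT replicate 1 or 3 or Stra8-KO replicate 1 or 2 (0.0572 to 0.119). The call of Col4a4 was also lost with upper quartile scaling (limma, adjusted p = 0.0605) and without the variance trend (0.0554). The same held with the replicate number as a block (0.0773) and with no filter on low values (0.0731). Des, the muscle filament protein desmin, had 2.16 ± 0.543 and 3.86 ± 0.489 (SD, n = 3), with no overlap between genotypes and an adjusted p of 0.0581 from limma. It was called higher with upper quartile scaling (0.0323), with median of ratios scaling (0.0444) and without the variance trend (0.0317). Col9a1, Dst and the locus paired with Sned1 did not pass the test, with log2 fold changes of -0.55, -0.18 and -0.49.

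**Figure D4:**
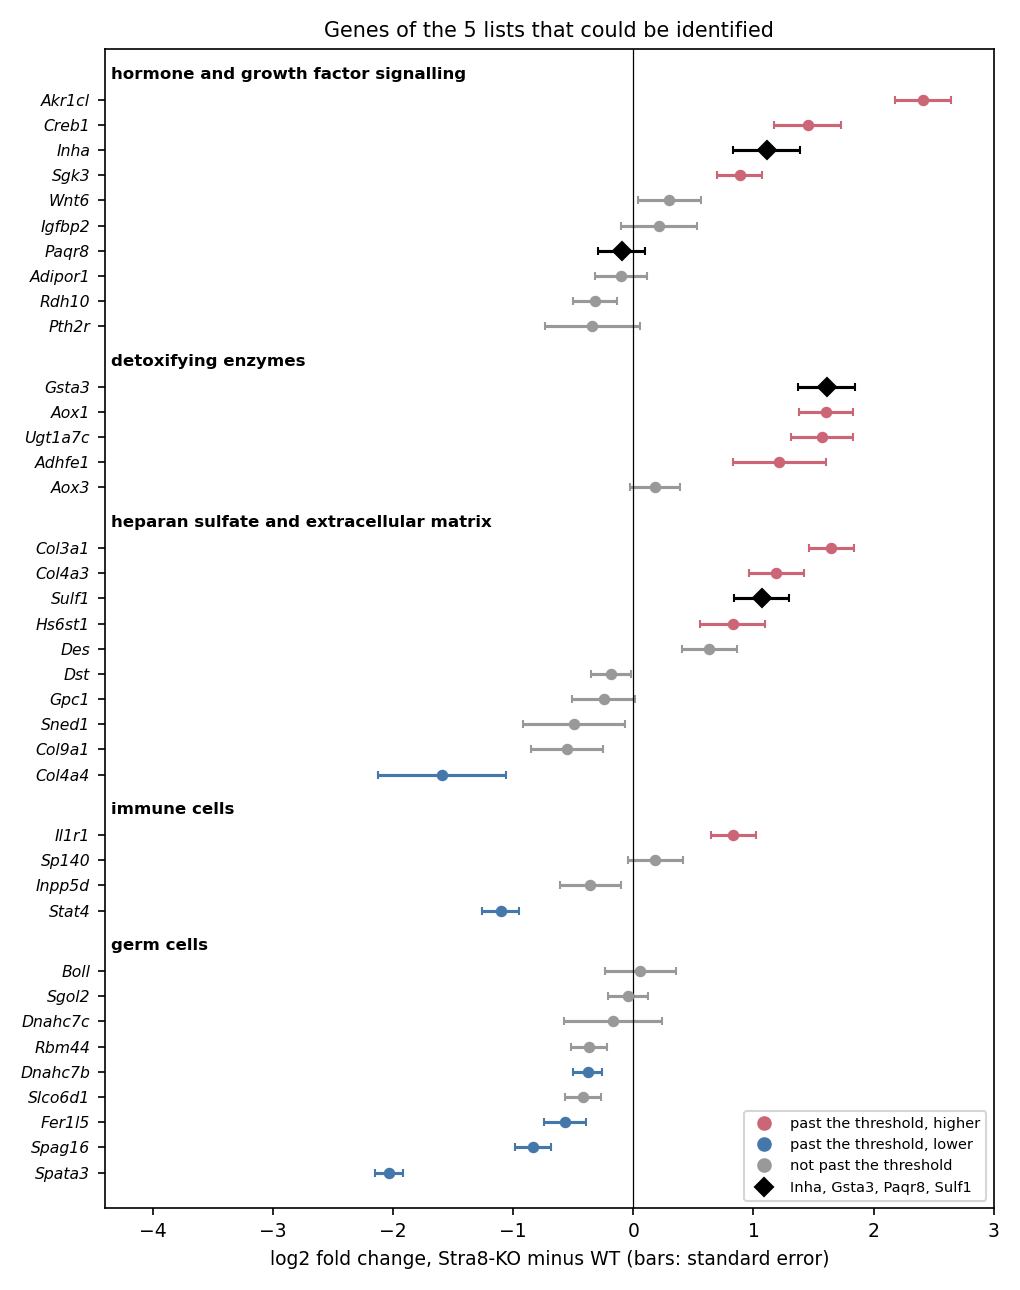
The log2 fold change (Stra8-KO minus WT) with its standard error for the genes of 5 lists that could be identified, in red where higher and blue where lower past the threshold, with black diamonds, which show no call, for the 4 genes described here. Without the 4, higher genes number 3 of 8 hormone, 3 of 4 detoxifying, 3 of 9 matrix, 1 of 4 immune and 0 of 9 germ cell genes, against 19.3% of all loci tested.

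Of 18 markers of immune cells, 4 could be identified, of which 1 rose, 1 fell and 2 did not pass the test, near the 19.3% higher and 25.6% lower among all loci tested. Their median log2 fold change was -0.09. Il1r1, a receptor of interleukin-1, rose from 3.18 ± 0.261 to 6.43 ± 0.298 FPKM (SD, n = 3; limma, adjusted p = 0.0104). Stat4 fell from 242 ± 17.5 to 113 ± 19.9 (SD, n = 3; limma, adjusted p = 0.00139), and although listed for its role in T cells it is also known from haploid germ cells. Inpp5d, with 11.5 ± 3.23 and 8.57 ± 1.55, and Sp140, with 2.51 ± 0.720 and 2.93 ± 0.0992 (SD, n = 3), did not pass the test. The summed FPKM of the 4, most of it from Stat4, was 241 to 269 over WT and 107 to 144 over Stra8-KO testes. The part of immune cells in the values of Inha, Gsta3 and Sulf1 was not tested.

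The loci whose values over the 6 testes were most like those of each gene were sought among 181 other identified loci with a mean FPKM of at least 5. Likeness was measured as the root mean square difference of the log2(FPKM + 1) values, each centred on its own mean. The points share their libraries and the genotype contrast, so the likeness is a description. The filter took the mean over both genotypes, so a locus could pass on its values in 1 genotype alone. Aox1, the locus listed under a microRNA gene and Pdcl3, all given below, had WT means under 5 and passed through their Stra8-KO values. Their likeness to genes with higher values in Stra8-KO testes is thus partly built in. For Gsta3 the closest was Aox1, with a difference of 0.16, followed by a locus listed under a microRNA gene, which is not named here because microRNAs were not matched, and by Etnk2, an ethanolamine kinase, with 0.21. Etnk2 averaged 21.1 ± 5.31 FPKM over WT and 64.4 ± 8.13 over Stra8-KO testes (SD, n = 3). Aox1 averaged only 2.18 FPKM over WT testes, a level at which the +1 makes its change smaller in this measure.

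For Inha the closest locus was Atg16l1, a gene of autophagy, with a difference of 0.23. It had an FPKM of 10.1, 4.60 and 3.74 in WT replicates 1 to 3 and of 18.1, 14.0 and 11.7 in Stra8-KO replicates 1 to 3, the same order of testes as Inha in both genotypes. Atg4b, another autophagy gene, and Pdcl3 followed, with 0.30 and 0.31. Sulf1 was closest to 2310035C23Rik and Hibch, an enzyme of valine breakdown, with 0.14 and 0.15, and then to Slc35f5 with 0.17. For Paqr8 the closest were Adipor1 and Osgepl1, with 0.12 each, and Cab39 with 0.14. Adipor1, listed among hormone receptors above, had an FPKM of 56.3, 46.9 and 30.5 in WT replicates 1 to 3 and of 41.8, 41.0 and 38.1 in Stra8-KO replicates 1 to 3, so that WT replicate 3 was the lowest of all 6 testes for it as for Paqr8.

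**Figure D5:**
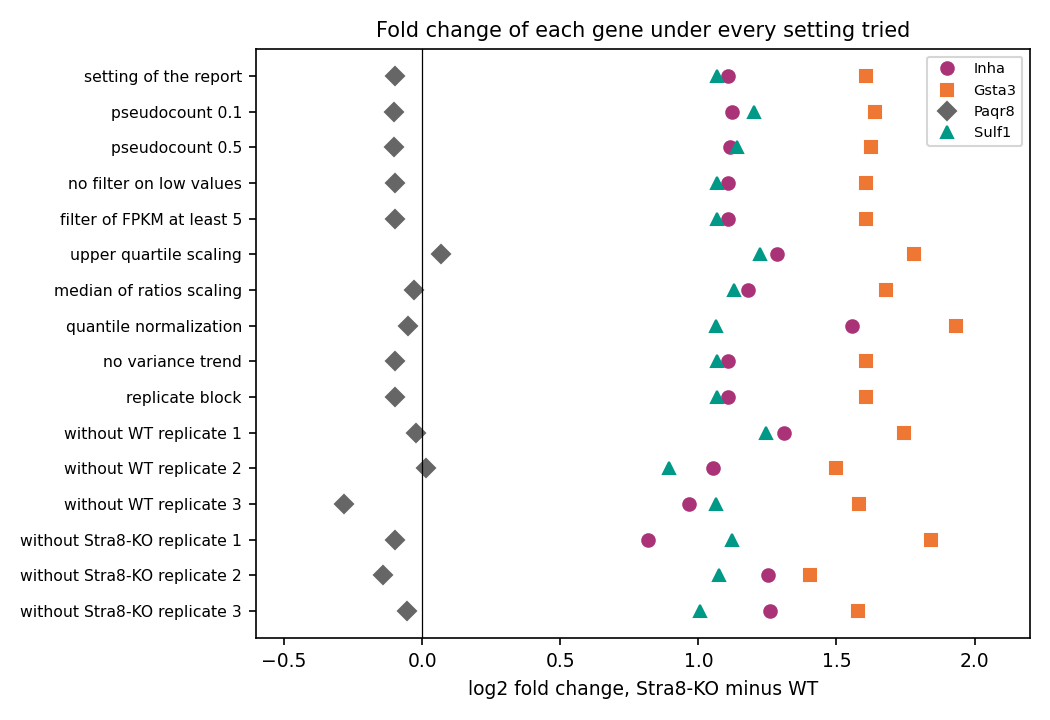
The log2 fold change (Stra8-KO minus WT) of Inha, Gsta3, Paqr8 and Sulf1 under the setting of the report and under 15 alternatives. Gsta3 ranges from 1.41 to 1.93, Inha from 0.82 to 1.56 and Sulf1 from 0.89 to 1.246, while Paqr8 lies between -0.28 and 0.07 on both sides of zero.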

How the data were processed

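RNA-Seq libraries of whole testis from 3 WT and 3 Stra8-KO mice were analysed. Per the study's methods they are biological triplicates. The authors trimmed the reads with a different first base for each genotype, mapped them with Tophat to Ensembl NCBIM37, assembled and quantified them with Cufflinks, with bias and multi-read correction and a mask for ribosomal, small and mitochondrial RNA, and deposited 1 FPKM value per locus and testis. FPKM summed to 792578 to 974911 per testis. The files hold no counts, so the depth behind a locus is unknown, and precision is given by the SD over testes.

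FPKM was transformed as log2(FPKM + 1) and fitted in limma 3.58.1 (R 4.3.3) using a variance trend, without a block, over 18726 loci, and p-values were adjusted by Benjamini-Hochberg over all of them. The +1 makes fold changes of low loci smaller. Names come from the study's list of named loci, aligned in order on WT values (cost 1 for skipping a listed locus, 0.05 for skipping a file locus). Authors' fold changes and p-values were not used. Promoter windows were read from the NCBIM37 genome. Genes are named as follows: the 4 genes, all list genes identified, and for each of the 4 the 3 closest profiles. The 4 genes and the lists were chosen with earlier results of these data known. Locus names outside the aligned part of chromosome 1 were not analysed here, so Sertoli and Leydig cell markers there were not read. The header of 1 WT file gives another replicate number than its sample, and the number of the sample was used. Alternatives were other pseudocounts, filters and scalings, no variance trend, the replicate number as a block and each testis left out. Python 3.11.15, numpy 2.4.6, pandas 2.3.3 and matplotlib 3.10.9 were used.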

Additional observations from a re-analysis of the deposited data

How the results depend on the processing

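The 4 genes were chosen on this contrast, so their values under the 15 alternatives are a description. The value of Paqr8 was above zero in 2 of them. Values of the 4 genes moved by less than the spread between testes, except that of Inha with quantile normalization, at a log2 fold change of 1.56, and the cause was not tested. With a testis left out, the log2 fold change ranged from 0.82 to 1.31 for Inha, from 1.41 to 1.84 for Gsta3, from 0.89 to 1.246 for Sulf1 and from -0.28 to 0.01 for Paqr8. The numbers of loci higher and lower ranged from 2404 to 3302 and from 3706 to 4385. Requiring in addition a change of 1 or more on the log2 scale left 1865 loci higher and 2669 lower, by construction fewer. Upper quartile scaling raised the share of higher loci among those called from 42.9 to 54.7%. With the replicate number as a block, 3530 loci were higher and 4898 lower, and the log2 fold changes of Inha, Gsta3, Paqr8 and Sulf1 were 1.11, 1.61, -0.10 and 1.07, as without it. The numbers mark no known pairing. The deviations of same-numbered testes correlated with r = -0.02 to 0.13 across loci over 3 pairs, and those of different numbers with -0.13 to 0.07 over 6 pairs. Of the 16 other list genes called, 11 kept their call in every alternative that tested them and 14 with the block. The exceptions with the block were Adhfe1 (adjusted p = 0.0728) and Col4a4 (0.0773). Slco6d1, not called under the setting of the report, was called lower with the block (0.0341) and with the filter of FPKM at least 5 (0.0475). The limma adjusted p-values are given. With a pairing limit of 25% in place of 1.5 times, the genes higher were 2 each in the hormone, detoxifying and matrix lists and 0 in the immune list, and the genes lower were 1 in the matrix and immune lists each and 4 in the germ cell list.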
